A study of Mus musculus with 18 samples.

Results

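The 8 genes Slc17a6, Tcf7l2, Lef1, Rgs16, Lhx9, Prkcd, Synpo2 and Gbx2 were examined in every library of neuronal nuclei from the medial entorhinal cortex (MEC) of mice of 3 ages, called young, MA (labelled Mature) and aged. They were chosen by name as genes of thalamic and VGLUT2 neurons, after high values had been seen in the library of a single young mouse, Y20. All 8 were found among 27781 named genes of the table. The values in Y20 therefore describe the choice, and the distance of Y20 from the other libraries is given here with no p. The study recorded MEC activity in C57Bl/6 mice running a virtual Split Maze and then dissected MEC from 1 frozen hemisphere of each mouse. Nuclei positive for Hoechst, a DNA dye, and NeuN, a protein of neuronal nuclei, were sorted, so the libraries hold many kinds of neurons at once. Each age contributed 6 of the 18 libraries, from 3 females and 3 males, and no genotype or drug differed between mice. Per the study's methods, Charles River supplied the young mice and the Jackson Laboratory the rest, so vendor and age cannot be told apart in a comparison with young mice. The dissection can also take in nuclei of the neighbouring parasubiculum and lateral entorhinal cortex.

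Slc17a6 encodes VGLUT2, the transporter that loads glutamate into synaptic vesicles of most thalamic and many brainstem neurons, whereas most cortical excitatory neurons rely on VGLUT1, encoded by Slc17a7. Tcf7l2 and Lef1 encode DNA-binding partners of beta-catenin, through which Wnt signals reach their target genes, and both are known from thalamic neurons. Tcf7l2 is also made by midbrain neurons and by differentiating oligodendrocytes. Lhx9 and Gbx2 encode homeodomain proteins of the developing thalamus. Rgs16, a brake on G protein signalling, Prkcd, the delta isoform of protein kinase C, and Synpo2, an actin-binding protein, are markers of thalamic relay neurons in the adult mouse.

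In the GENCODE annotation of the mouse genome build GRCm39, all 8 are protein-coding genes. Slc17a6 lies at chr7:51271434-51320867 on the plus strand, Tcf7l2 at chr19:55730188-55922091 on the plus strand and Lef1 at chr3:130903919-131018005 on the plus strand. Rgs16 lies at chr1:153616091-153621228 on the plus strand, Lhx9 at chr1:138752924-138776341 on the minus strand and Gbx2 at chr1:89855678-89858920 on the minus strand. Prkcd lies at chr14:30317307-30349238 and Synpo2 at chr3:122870168-123029798, both on the minus strand.

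The start regions of the 3 genes that stood farthest above the other libraries in Y20 are printed because Tcf7l2 and Lef1 proteins bind DNA themselves, so the letters they are known to favour can be looked for. Each is 300 bases long, of which 250 lie before and 50 after a RefSeq transcription start, and each was taken from a table of build GRCm38.p6 and placed on GRCm39 by a single exact match. Capitals mark the letters searched for, on both strands. These were the TCF/LEF heptamer ACTTTGA, its form with a T as the last letter, ACTTTGT, its form with a T as the first letter, TCTTTGA, and the form with both, which is TCTTTGT. The homeodomain core TAATTA was searched for as well, and no match of it overlapped a heptamer in these genes.
Slc17a6, first start: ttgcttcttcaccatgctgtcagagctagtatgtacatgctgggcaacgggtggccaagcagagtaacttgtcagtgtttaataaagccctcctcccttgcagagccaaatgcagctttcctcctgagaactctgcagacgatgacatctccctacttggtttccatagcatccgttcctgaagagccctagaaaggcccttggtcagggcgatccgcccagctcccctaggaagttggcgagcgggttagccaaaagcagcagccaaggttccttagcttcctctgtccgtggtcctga
Slc17a6, internal start: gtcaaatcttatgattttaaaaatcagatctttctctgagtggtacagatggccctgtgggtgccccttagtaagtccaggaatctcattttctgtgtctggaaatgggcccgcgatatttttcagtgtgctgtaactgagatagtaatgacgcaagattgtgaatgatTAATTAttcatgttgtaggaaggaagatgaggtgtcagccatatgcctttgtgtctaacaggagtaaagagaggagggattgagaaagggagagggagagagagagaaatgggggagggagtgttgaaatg
Tcf7l2, first start: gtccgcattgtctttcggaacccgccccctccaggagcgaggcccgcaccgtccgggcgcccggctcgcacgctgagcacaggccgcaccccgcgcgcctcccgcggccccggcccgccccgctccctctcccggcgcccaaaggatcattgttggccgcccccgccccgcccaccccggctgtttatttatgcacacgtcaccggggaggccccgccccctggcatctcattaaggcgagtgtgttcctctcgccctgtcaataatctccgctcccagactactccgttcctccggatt
Lef1, first start: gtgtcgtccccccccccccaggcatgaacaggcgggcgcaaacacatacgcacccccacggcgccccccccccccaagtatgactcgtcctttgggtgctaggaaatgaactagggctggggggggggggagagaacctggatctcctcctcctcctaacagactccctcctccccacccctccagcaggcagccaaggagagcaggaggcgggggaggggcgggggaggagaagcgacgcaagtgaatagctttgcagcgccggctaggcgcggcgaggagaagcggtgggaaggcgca
Lef1, internal start: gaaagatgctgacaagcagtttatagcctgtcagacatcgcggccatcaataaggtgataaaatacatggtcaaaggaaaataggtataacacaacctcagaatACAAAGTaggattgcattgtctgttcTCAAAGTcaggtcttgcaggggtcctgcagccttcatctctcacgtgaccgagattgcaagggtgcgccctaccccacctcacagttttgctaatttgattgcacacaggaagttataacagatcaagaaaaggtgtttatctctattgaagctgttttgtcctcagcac

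The first Slc17a6 start region is chr7:51271328-51271627, with its start in an exon of the canonical transcript, and the internal one is chr7:51274135-51274434, with its start in an intron. The Tcf7l2 region is chr19:55729992-55730291 and starts transcription in an exon. The first Lef1 region is chr3:130903696-130903995, with its start in an exon, and the internal one printed is chr3:130949693-130949992, with its start in an intron. A further intronic start region of Lef1, at chr3:130906190-130906489, and one of Tcf7l2, at chr19:55883503-55883802, held none of the letters and are not printed. The internal Lef1 region printed, chosen because it has matches, held 2 TCF/LEF heptamers and the internal Slc17a6 region held 1 TAATTA, while the first regions of Slc17a6, Tcf7l2 and Lef1 held none of these letters. Of the 14 start regions listed for the 8 genes, some of which overlap, 4 (28.6%) held a TCF/LEF heptamer, against 16.4% of 32851 start regions in the table. These 4 belonged to Lef1, Lhx9 and Prkcd, the last of which was not high in Y20. TAATTA was in 2 of the 14 (14.3%), in Slc17a6 and Synpo2, against 5.29% of all start regions. These are matches of letters and not measured binding.

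Values are gene counts divided by a size factor for each library, which sets the libraries on a common scale but gives no depth. The values did not fall on whole multiples of a step (16.2 to 33.2% of low values within 0.05 of a whole multiple), so the reads behind each value are unknown. Xist and 4 Y-linked genes matched the stated sex in all 18 libraries. Y25 and MA5 stood apart by genes of cerebellar granule cells, which summed to 17375 and 42543 against 57.0 to 697 in the remaining libraries, with 57.0 in Y20. Rbfox3, which encodes NeuN, was at 7206 in Y20 and between 1666 and 8576 elsewhere.

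Slc17a6 was the member with the clearest separation. Its normalized value was 7394 in Y20, while the other young libraries read 672 in Y22, 663 in Y23, 511 in Y25, 726 in Y27 and 811 in Y28. MA libraries ran from 393 through a median of 759.8 to 978, and aged libraries from 487 through 783 to 1725. Y20 lay 10.2-fold above the median of the other 17 libraries and 4.29-fold above A15, the highest of them. The other 17 libraries overlapped across the age groups, and only Y20 stood outside their range. Because these are bulk samples, more nuclei that make a transcript and more transcript per nucleus cannot be told apart. The related VGLUT1 gene Slc17a7 was at 826 in Y20, rank 17 of 18, against a median of 3474 elsewhere, and Slc17a8, which encodes VGLUT3, was at 188 in Y20, rank 2 of 18.

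Lef1 showed the largest ratio to the median. Its value was 6222 in Y20 and 487, 86.9, 357, 358 and 205 in Y22, Y23, Y25, Y27 and Y28. Among MA libraries it ran from 27.6 in MA8 through a median of 329.8 to 1627 in MA6, and among aged libraries from 31.9 in A15 through 172 to 897 in A20. Y20 was 24.3-fold above the median of the other 17 and 3.82-fold above MA6. Lef1 thus varied widely without Y20 as well, with a log2 range of 5.83 over the 17 libraries.

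Tcf7l2 was at 1522 in Y20 and at 235, 131, 295, 438 and 495 in the other young libraries in the same order. MA libraries ran from 189 through 404 to 614 and aged libraries from 60.0 in A15 through 277 to 636 in A24. Y20 lay 4.35-fold above the median of the other 17 libraries and 2.39-fold above A24. Oligodendrocyte genes, which NeuN sorting is meant to leave out, were high in Y20 too. Of 5 such genes, 3 were highest in Y20, while Mbp, a myelin protein gene, was at 4124, rank 3. The 5 summed to 12662 in Y20 and to 3065 through 5716 to 15401 in the others. The 3 genes of newly formed oligodendrocytes summed to 732 in Y20 and to 110.4 through 261 to 540.3 in the others, and Bmp4 among them was at 90.7 against at most 44.5. Their part in the Tcf7l2 value was not tested. The 2 other libraries with the highest oligodendrocyte sums, MA5 and A24, had Tcf7l2 at 443 and 636, ranks 5 and 1 of the 17. The library with the next highest sum, A20 at 8878, had Tcf7l2 at 210, rank 14 of the 17.

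Rgs16 and Lhx9 were raised in Y20 less distinctly. Rgs16 was at 184 in Y20, 54.1 to 95.3 in the other young libraries, 39.5 to 132 in MA libraries and 46.0 to 142 in aged libraries. Y20 was the highest, but only 1.29-fold above A15. Lhx9 was at 288 in Y20 and at 31.9, 173, 21.6, 143 and 114 in the other young libraries. MA libraries ran from 53.3 through 105 to 116 and aged libraries from 20.7 through 43.1 to 311. The top Lhx9 value was that of A15 and not of Y20, and both were above the remaining 16 libraries.

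Prkcd, Synpo2 and Gbx2 were not high in Y20. Prkcd was at 106 in Y20, rank 15 of 18, and between 47.4 in A15 and 567.6 in Y25 in the others, with a median of 248. Synpo2 was at 87.9 in Y20, rank 16, and between 39.5 in A15 and 990.5 in Y27, with a median of 274. Y20 thus lay at 0.428 of the median for Prkcd and 0.320 of it for Synpo2, inside the range of the other libraries for both. Gbx2 was at 1.16 in Y20 and at most 9.72 in any library, and was listed at 0 in 8 of the other 17. Its mean of 1.98 is under the minimum of 25 set for tests, so Gbx2 entered none.

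**Figure D1:**
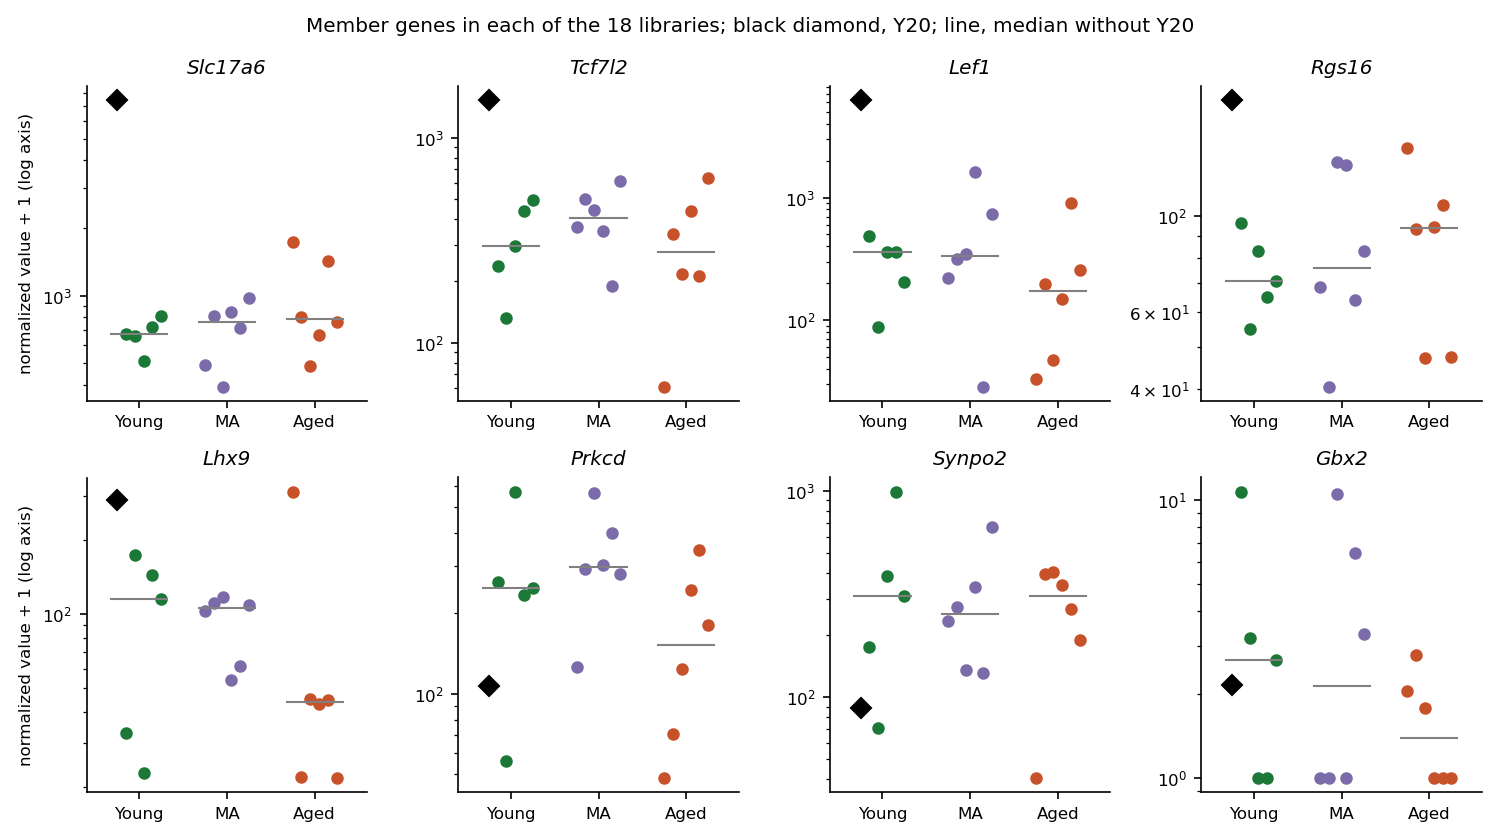
Normalized value plus 1 on a log axis for each of the 8 genes in each library, by age group; black diamonds mark Y20 and grey lines the group medians without Y20. The diamond is above all points for Slc17a6, Tcf7l2, Lef1 and Rgs16, with A15 above it for Lhx9, and it lies within the points for Prkcd, Synpo2 and Gbx2.

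Of the members, 7 of the 8 genes reached a mean of 25, and Y20 was the highest library for 4 of the 7 and at least 2-fold above every other library for 3 (Slc17a6, Lef1 and Tcf7l2). Over the 17984 genes with that mean, Y20 was highest for 11.4% and at least 2-fold above every other for 0.567%, which is 102 genes. Since the genes were chosen on these values, nothing is read from that contrast. Ordered by the log2 distance of Y20 from the highest other library, Slc17a6 was at place 21, Lef1 at 29, Tcf7l2 at 61 and Rgs16 at 623 of 17984. A large number of such genes is not peculiar to Y20: MA5 was 2-fold above every other library for 124 genes and Y22 for 64. Prkcd, Synpo2 and Gbx2 were not high in Y20 with Slc17a6, so the genes are named singly. The label of a thalamic set is used as a name only, and nothing is concluded about it from these values.

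No member had a steady level, taken as a log2(value + 1) range of at most 2, or 4-fold, over all 18 libraries, which 51.1% of the 17984 genes met. Gbx2, near 0 in every library, had a log2 range of 3.42. Of the 7 tested members Rgs16 was nearest with a log2 range of 2.19, followed by Prkcd at 3.55, Lhx9 at 3.85, Slc17a6 at 4.23, Synpo2 at 4.61, Tcf7l2 at 4.64 and Lef1 at 7.77. Without Y20 the range of Rgs16 fell to 1.82 and that of Slc17a6 to 2.13. Rgs16 alone of the members then met the limit, which 53.4% of the 17984 genes met without Y20. Slc17a6 had the smallest standard deviation of the 7 on the log2 scale over the 17 libraries, 0.53, beside 0.55 for Rgs16 and 1.61 for Lef1. A15 was the highest of the 17 libraries for Slc17a6, Rgs16 and Lhx9 and the lowest for Tcf7l2, Prkcd and Synpo2.

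Other genes of the thalamus did not move as a block in Y20. Of 12, Y20 was the highest library for 4 and at least 2-fold above every other for 2: Shox2, a homeobox gene, at 510.2 against at most 30.5, and Tnnt1, a troponin gene, at 231 against at most 74.3. Shox2 and Tnnt1 reached the mean of 25 only with Y20, and none of the others was 2-fold above. The other 2 with Y20 highest were Rora and Foxp2, named after their values were seen. Ntng1, which encodes netrin-G1 on thalamic axons, was at 6788, rank 13. Over the 10 genes that reach the mean of 25 without Y20, a filter chosen after the data were seen, Y20 was highest for 2 and the median log2 excess over the other libraries was 0.71, against -0.03 for all genes. Of 6 habenular genes, 4 were highest in Y20, with Pou4f1, a POU transcription factor gene, at 167 against at most 84.6 and Chrnb4, a nicotinic receptor subunit gene, at 110.5 against at most 52.2, while Gpr151 was at 64.5, rank 4. Pou4f1 and Chrnb4 reached the mean of 25 only with Y20. Nwd2 of the same list, named after its values were seen, was lowest in Y20, at 1936 against at least 1942. The 6 genes summed to 2925 in Y20, under the median of 3538 elsewhere. Most of that sum was Nwd2, which had a median of 3094 elsewhere. Nwd2 was the only 1 of the 6 under the median of the other libraries. Over the 4 habenular genes that reach the mean of 25 without Y20, the median log2 excess of Y20 was 1.30.

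Genes of midbrain GABA neurons and the tectum stood farther above. Of 5 that reached the mean of 25, 4 were at least 2-fold above every other library in Y20, and of the 3 that reach it without Y20 all 3 were. Gata3, a GATA factor gene, was at 1305 against at most 176.5, Tal1, which encodes its partner, at 227 against 28.3, Pax7, a tectal paired-box gene, at 961 against 82.1, and Otx2, a fore- and midbrain homeobox gene, at 970.3 against 239.6 in MA5. Sox14, below the mean, was at 147 against at most 6.60, and Gata2 at 22.3 against at most 16.3. Summed over 7 genes this list was at 3773 in Y20 and between 65.1 and 420.4 elsewhere. Its part in the values of Slc17a6, Tcf7l2 and Lef1 was not tested.

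Among genes with a mean of at least 25, the 10 outside the 8 with the largest log2 distance of Y20 from the highest other library were Chrna6, Shox2, Gabrr2, Pax7, Dmbx1, Tal1, Gata3, Gabrr1, Hs3st3b1 and Slitrk6. Chrna6, a nicotinic receptor subunit gene, was at 1236 in Y20 against at most 53.2, and Gabrr2, which encodes a rho subunit of GABA receptors, at 4561 against at most 288. The distances of the 10 ran from 2.65 to 4.51, all above the 2.10 of Slc17a6, and 5 of the 10 reached the mean of 25 only with Y20.

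Among 5 tested targets of Wnt signalling, which Tcf7l2 and Lef1 proteins serve, 1 was highest in Y20 and none was 2-fold above. That was Lgr5, named after its values were seen, at 1056 against at most 648. Axin2, the standard target, was at 103, rank 4, inside the range of 23.7 to 117 elsewhere, and Nkd1 was at 279.8, rank 2. Sp5, below the mean of 25, was at 47.1 against at most 3.92. Of 12 tested relatives of the members, Slc17a7 and Slc17a8 included, none was highest in Y20 and 8 were under the median of the other libraries.

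GABA neuron genes were higher in Y20 in part, with Gad1 at 18824 against at most 13730 and Gad2 at 6029 against at most 5989, and 2 of 8 were highest there. Sst, the somatostatin gene, at 977 and Lhx6, a gene of cortical interneurons, at 87.8 were lowest in Y20 of all libraries, and both were singled out with their values known. In the subicular complex list Tshz2, a zinc finger gene, was at 18536 against at most 5505, while Fn1 was at 341, rank 14, and Nts at 121, rank 11. Of the 10 cortical excitatory genes 1 was highest in Y20, and of the 5 astrocyte and 5 microglia genes none was. None was highest among the tested hypothalamic, pineal, cerebellar granule, dentate granule, oligodendrocyte precursor, vascular and choroid plexus genes.

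**Figure D2:**
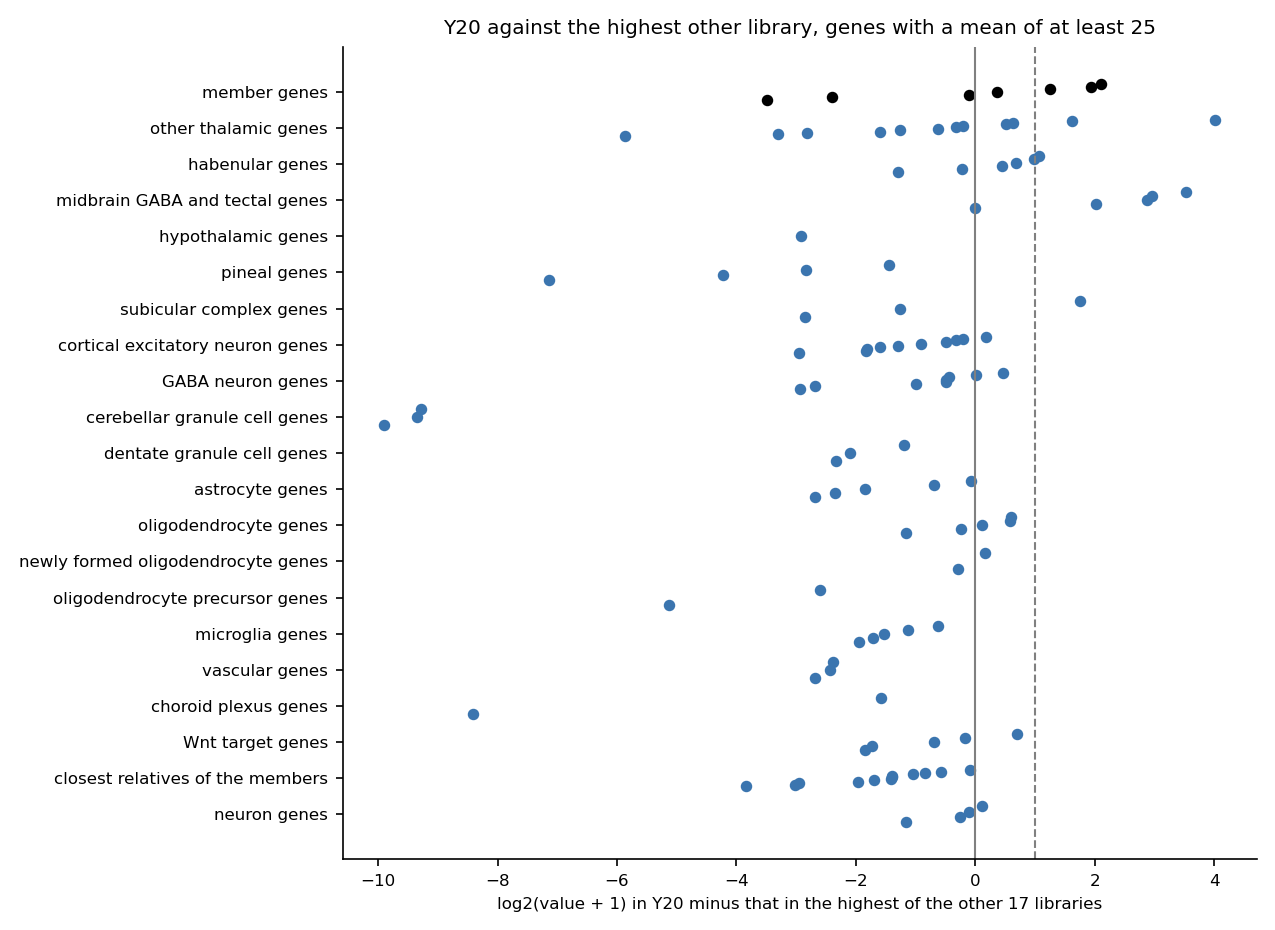
Each point is a gene with a mean of at least 25, placed by log2(value + 1) in Y20 minus that in the highest of the other 17 libraries, by marker list; the solid line marks 0 and the dashed line a 2-fold distance. Members reach from -3.48 for Synpo2 to 2.10 for Slc17a6, and 4 midbrain GABA and tectal genes lie beyond the dashed line.

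Age was compared with limma on log2(value + 1) over the 17 libraries without Y20, with sex as a covariate. The question was whether these genes differ with age once the library that led to their choice is set aside. No member was called in any age comparison (Benjamini-Hochberg adjusted p of 0.05 and absolute log2 fold change of 0.5). Over all 18042 genes tested, 0.0721% were called for MA minus young, 0.061% for aged minus young and 0% for aged minus MA. At an unadjusted p under 0.05, limma gave 0 of the 7 members for MA minus young, 0 for aged minus young and 1, Prkcd, for aged minus MA, beside 689, 941 and 441 of all genes.

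Slc17a6 had a mean of 677 ± 109.7 (SD, n = 5) in young, 705 ± 223 (n = 6) in MA and 979.5 ± 485 (n = 6) in aged libraries. The log2 fold change was 0.00 ± 0.31 (SE) for MA minus young and 0.41 ± 0.31 for aged minus young, with limma adjusted p of 0.999 and 0.879. All 3 groups overlapped, and the highest 2 of the 17 values were aged, in A15 and A20. With Y20 included the same differences turned to -0.57 and -0.17, so the sign of aged minus young for Slc17a6 rested on that 1 library. Without A15 that difference was 0.22. MA minus young, near 0, had no stable sign with Y20 left out, from -0.10 to 0.18 when 1 further library was left out at a time.

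Lef1 had a mean of 299 ± 155 in young, 544 ± 579 in MA and 263 ± 322 in aged libraries (SD). Its aged minus young log2 fold change was -0.64 ± 0.78 (limma adjusted p = 0.910) without Y20 and -1.56 with it. Leaving out Y22 as well made it -0.08, and leaving out A15 instead made it -0.36. The SD exceeded the mean in the MA and aged groups, where MA6 and A20 were high. Tcf7l2 had a mean of 319 ± 149 in young, 411 ± 146 in MA and 316 ± 202 in aged libraries (SD), and the aged minus young log2 fold change was -0.10 ± 0.43 (limma adjusted p = 0.972). That difference of Tcf7l2 had no stable sign: leaving out 1 library at a time gave -0.31 to 0.22, the highest without A15, and including Y20 gave -0.59. For Lef1 the MA minus young difference turned from 0.41 to -0.52 with Y20 included.

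The mean of Prkcd was 273 ± 185 for young, 326 ± 145 for MA and 168 ± 112 for aged libraries (SD). Its aged minus MA log2 fold change of -1.13 ± 0.42 had the lowest unadjusted p among the members in any age comparison, 0.0158, but a limma adjusted p of 0.999. In an exact permutation test of the 12 libraries on the log2 scale, two-sided, p was 0.0649, and the groups overlapped. Recording cohort, as the methods describe it, differed between sexes in young and aged mice: females and all MA mice were in cohort C, males of the other ages in cohort D. Within cohort C, chosen after the data were seen, Prkcd was at 47.4, 69.9 and 123 in the 3 aged females and at 124 to 561 in the 6 MA mice. The exact permutation p was 0.0238, the smallest that 3 against 6 can give and not adjusted over the 7 members and 3 age comparisons. That comparison sets females against both sexes, and between females alone, 3 against 3, the difference was -1.68 with an exact permutation p of 0.1, the smallest possible. Without Y25 and MA5 the aged minus MA difference over both sexes was -1.05.

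Rgs16 differed by 0.18 ± 0.41 on the log2 scale for aged minus young, Lhx9 by -0.64 ± 0.67 and Synpo2 by -0.23 ± 0.64, each within its SE. Leaving out A15 made these differences 0.0080, -1.14 and 0.19, so Synpo2 changed sign, and within cohort C Synpo2 differed by 0.74. For aged minus MA, Rgs16 differed by 0.04 ± 0.39, Synpo2 by -0.19 ± 0.60 and Lhx9 by -0.87 ± 0.64 (limma adjusted p = 0.999 for each), where Rgs16 and Synpo2 changed sign without A15, to -0.15 and 0.26, and an exact permutation test of Lhx9 gave p = 0.175. For Lhx9 the aged group held both A15 at 311 and 5 libraries between 20.7 and 44.1. The MA libraries of Lhx9, at 53.3 to 116, all lay above those 5 and below A15. Without A15 the aged minus MA difference of Lhx9 was -1.41, with an unadjusted limma value of 0.0184 that did not pass the adjustment over all genes.

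**Figure D3:**
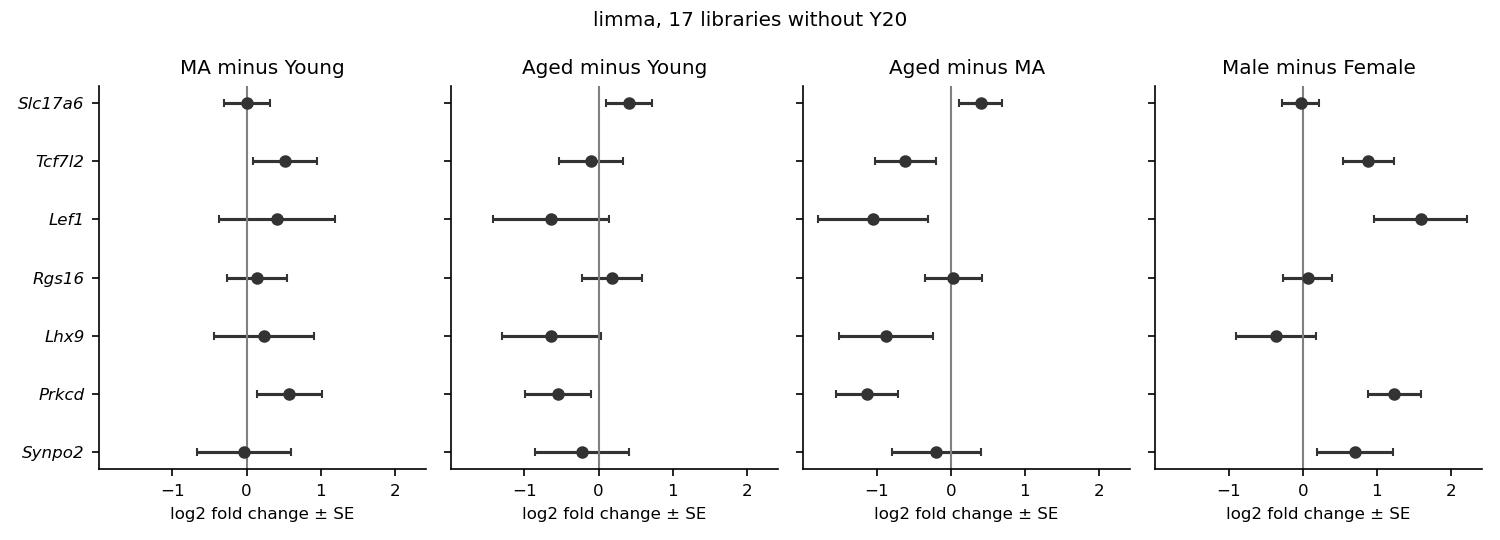
limma log2 fold changes with standard errors for the 7 tested members in 4 comparisons of the 17 libraries without Y20; the vertical line marks no difference. The widest errors are those of Lef1, and 5 of the 7 members lie to the right of the line in male minus female, Rgs16 nearest to it.

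In the comparison of sexes, with age group as a covariate, no member was called either, against 0.549% of the 18042 genes, while 3 of the 7 members had an unadjusted limma p under 0.05, beside 1394 of all genes. The male minus female difference was 0.89 ± 0.35 for Tcf7l2, 1.59 ± 0.63 for Lef1 and 1.23 ± 0.36 for Prkcd on the log2 scale, with limma adjusted p of 0.574, 0.575 and 0.317. Y20, set aside for high values that include Tcf7l2 and Lef1, is a female, so leaving her out lowers the female level of both genes. With Y20 included the differences were 0.56 for Tcf7l2 and 0.97 for Lef1, with exact permutation p of 0.259 and 0.303, and among the 7 members Prkcd alone kept an unadjusted limma p under 0.05. Females ran from 60.0 through 225 to 614 for Tcf7l2 and males from 209.8 through 438 to 636. For Prkcd females ran from 47.4 through 124 to 397 and males from 179.8 through 292 to 567.6. Females held the lower end for all 3 genes, and the sexes overlapped. The highest Prkcd values were in Y25 and MA5, males that carry the cerebellar granule cell genes, and without both the Prkcd difference was 1.07 (limma adjusted p = 0.618), an alternative added after the data were seen. A two-sided exact permutation test of Prkcd gave p = 0.0137, the lowest of 28 tests of members, and 0.00724 with Y20 included, neither adjusted.

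Only in MA mice does sex not follow cohort. There the male minus female log2 difference was 0.29 for Tcf7l2, 1.76 for Lef1 and 0.61 for Prkcd, with exact permutation p of 0.8, 0.4 and 0.4, where 3 against 3 cannot go below 0.1. In the other groups sex and cohort cannot be told apart. The summed astrocyte genes also had a higher median in males, with sums from 2287 through 4964 to 11418 in females and from 4841 through 7898 to 15732 in males. Oligodendrocyte precursor genes summed to 140.1 through 305 to 981 in females and 308 through 651 to 1085 in males. Their part in the differences between sexes was not tested. Slc17a6 differed by -0.03 ± 0.25 and Rgs16 by 0.07 ± 0.33 between sexes, Lhx9 by -0.36 ± 0.54 and Synpo2 by 0.70 ± 0.51. Without A15 the Synpo2 difference was 0.38.

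**Figure D4:**
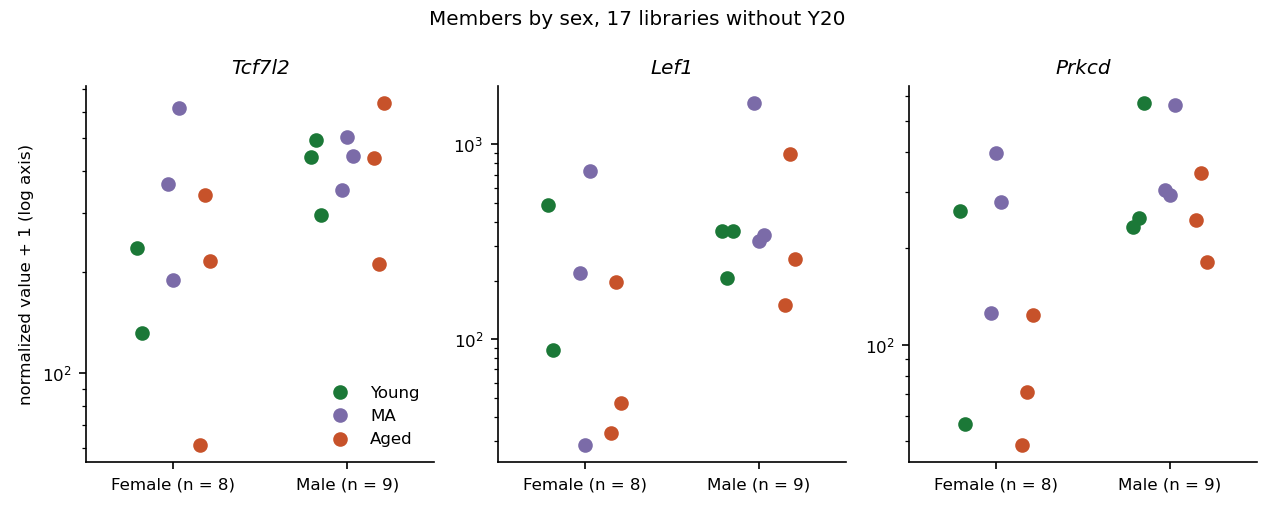
Normalized value plus 1 on a log axis for Tcf7l2, Lef1 and Prkcd in 8 female and 9 male mice, coloured by age group and without Y20. The lowest points of each gene are females, and both sexes share most of the range.

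In the 17 libraries other than Y20, some members varied together and others did not. Of 21 pairs, 12 had a Pearson r above 0, over a range of -0.38 to 0.70 on the log2 scale. The highest was Tcf7l2 with Synpo2, at r = 0.70 (permutation p = 0.00187, Benjamini-Hochberg adjusted 0.0393 over the 21 pairs) and Spearman rho = 0.41 (permutation p = 0.103, adjusted 0.755). Without A15 and Y23, the 2 libraries farthest from the median of Tcf7l2, r was 0.28. The 6 pairs among Tcf7l2, Lef1, Prkcd and Synpo2, grouped after their values were seen, all had r above 0, from 0.40 to 0.70. But without the 2 farthest libraries, A15 and Y23, r was -0.05 for Tcf7l2 with Prkcd and -0.25 for Prkcd with Synpo2. Sex, cohort and age were not adjusted for in r or its permutations for any pair. The limma male minus female log2 differences were 0.89 for Tcf7l2, 1.59 for Lef1, 1.23 for Prkcd and 0.70 for Synpo2, none of them called. The part of sex or cohort in the r values of these pairs was not tested. Tcf7l2 and Lef1 had r = 0.57 (permutation p = 0.0165, adjusted 0.168) and rho = 0.39 (permutation p = 0.122, adjusted 0.755), with r = 0.32 without A15 and Y23. Lef1 and Prkcd had r = 0.50 (permutation p = 0.0406, adjusted 0.170) and rho = 0.53 (permutation p = 0.0301, adjusted 0.631), with r = 0.60 without MA8 and A15. Only the Pearson r of Tcf7l2 with Synpo2 passed an adjusted p of 0.05 among the 21 pairs, and no rho did. Slc17a6 and Tcf7l2, both high in Y20, had r = -0.38 (permutation p = 0.135, adjusted 0.406) and rho = 0.05 (permutation p = 0.846, adjusted 0.937), and r was 0.29 without A15 and A20. Slc17a6 and Lef1 had r = 0.04 (permutation p = 0.883, adjusted 0.883) and rho = 0.26 (permutation p = 0.318, adjusted 0.755), with r = 0.29 without A15 and A20.

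By Pearson r over the same 17 libraries, the genes most like each member among 18042 were found as a description. They were Stmn4, Syt5 and Oprl1 for Slc17a6 (r of 0.80 each), and Daam2, Slc7a11 and Fcgrt for Tcf7l2 (0.90, 0.88 and 0.88). For Lef1 they were Pmp22, Cd44 and Cdh20 (0.84, 0.81 and 0.81), and for Rgs16 they were 9530082P21Rik, Kcnc4 and Ramp3 (0.79, 0.78 and 0.76). Lhx9 was closest to Epb4.1l4a, Gm9968 and Gnpat (0.87, 0.80 and 0.80), Prkcd to Tfeb, Amotl2 and Epha8 (0.90, 0.79 and 0.73) and Synpo2 to Slc25a13, Gm20711 and Actg2 (0.89, 0.84 and 0.82). No member was among the 3 nearest of another.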

How the data were processed

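The deposited signal is a normalized gene value: the authors mapped reads with kallisto to transcripts that included introns, summed them to genes and divided by DESeq2 size factors. The methods name mm39 and the submitters' processing notes mm10. Depth per library is unknown and its precision cannot be given. A row without a gene name (0.0246 to 0.169% of a library) was left out. Age groups came from the labels and sex from the study's source data. Genes with a mean of at least 25 were tested on log2(value + 1) over 17 libraries without Y20 by limma (version 3.58.1 under R 4.3.3, moderated variances with a mean trend), with Benjamini-Hochberg adjustment over all genes; calls needed an adjusted p of 0.05 plus, between ages, a log2 fold change of 0.5 in either direction. The script was tested on simulated data. Single genes had exact permutation tests, and pairs of members 100000 permutations (seed 1). Other software was scipy 1.17.1, numpy 2.4.6 and pandas 2.3.3 under Python 3.11.15, with plots by matplotlib 3.10.9. Each mouse gave 1 library. Named genes were the members, list genes at least 2-fold above every other library in Y20 or among the first 2 of a list, the 10 with the largest distance and the 3 most like each member. The members and lists were chosen with earlier results of these data known. Alternatives were all 18 libraries, pseudocounts of 5 and 0.5, no filter, a mean of at least 100, quantile normalization, rescaled sums, the 5 other young libraries alone, a steady limit of 1.5, no sex or age term, and each library left out. Values within a cohort, in females alone and without Y25 and MA5, exact tests between sexes with Y20, and list values filtered without Y20 were added after the data were seen. Protein sequences were not used here. Some results for single genes are left out here.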

Additional observations from a re-analysis of the deposited data

Results flagged for a closer look

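In the young group Y20 exceeded Dixon's limit for the gap between a library and the nearest of its group for Slc17a6 at 7394, Lef1 at 6222, Tcf7l2 at 1522 and Rgs16 at 184. The members had been chosen on high values in Y20, so these 4 are a description and carry no weight as a test. In the other cases Y27 exceeded the limit for Synpo2 at 990.5, where the next young library was at 386, and Y22 for Gbx2 at 9.72, a level too low to be tested. In the aged group A15 did for Lhx9 at 311, where the next was at 44.1, and A20 for Lef1 at 897, where the next was at 256. Chance gives such a gap in about 1 group in 20, and 24 groups of 6 libraries were examined. No MA library exceeded the limit for any of the 8 genes.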

How the results depend on the processing

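No member was called in any of the 4 limma comparisons under any alternative run. The log2 excess of Y20 over the median of the other libraries kept its sign for the 7 tested members, while for Gbx2, near 0 in every library, it moved from 0.28 to 1.77 with quantile normalization and to -0.31 against the 5 other young libraries alone. Without Y20 the number of steady members went from 0 to 1, Rgs16, beside 53.4% of the 17984 genes. Genes called between sexes went from 99 to 32 with a mean of at least 100, where fewer genes are tested. Without Y25 and MA5, chosen after seeing the data, genes called for MA minus young went from 13 to 8, with fewer samples. Unadjusted exact permutation p between sexes passed 0.05 for Prkcd with and without Y20, but for Tcf7l2 and Lef1 only without Y20, a female high in both, and were 0.259 and 0.303 with her. Several small differences changed sign, none of them called, and the cause was not tested. With all 18 libraries MA minus young became -0.57 for Slc17a6, -0.52 for Lef1, -0.090 for Rgs16, -0.057 for Lhx9 and 0.16 for Synpo2, aged minus young -0.17 for Slc17a6 and -0.055 for Rgs16, and male minus female -0.088 for Rgs16, also in the exact test. With quantile normalization MA minus young became -0.0099 for Slc17a6 and -0.086 for Rgs16, and Rgs16 became -0.14 for aged minus young and -0.058 for aged minus MA. Leaving out 1 library at a time, MA minus young ran from -0.10 to 0.18 for Slc17a6, -0.0057 to 0.97 for Lef1, -0.023 to 0.37 for Rgs16, -0.18 to 0.54 for Lhx9 and -0.49 to 0.36 for Synpo2. Aged minus young ran from -0.31 to 0.22 for Tcf7l2 and -0.68 to 0.19 for Synpo2, and aged minus MA from -0.18 to 0.21 for Rgs16 and -0.46 to 0.26 for Synpo2. Male minus female ran from -0.16 to 0.12 for Slc17a6, -0.052 to 0.22 for Rgs16 and -0.63 to 0.029 for Lhx9. Of the alternatives chosen after seeing the data, leaving out Y25 and MA5 gave -0.26 for Lhx9 and 0.29 for Synpo2 in MA minus young, and 0.15 for Slc17a6 and -0.072 for Rgs16 in male minus female. Within cohort C Synpo2 was 1.18 for MA minus young and 0.74 for aged minus young, and in females alone 1.29 and 0.74, where MA minus young was -0.32 for Lef1 and -0.028 for Rgs16. In MA libraries male minus female was 0.0096 for Lhx9 and -0.23 for Synpo2. Depth is unknown, so the counting error of low values such as those of Gbx2 cannot be given. No paired analysis was possible because each mouse gave 1 library, at 1 age.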
